A study of Homo sapiens with 3 samples.

Results

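The leukocyte receptor complex on 19q13 is a cluster of immunoglobulin-like receptor genes, and it was examined here as a part of the capture design of a branchpoint study. Its members are the 532 target intervals that lie fully inside 1 Mb of chromosome 19 in hg19, from the first target at 54501393 to the end of the last at 55497784, out of 377858 intervals in the whole design. The design served 3 libraries, biological replicates 1, 2 and 3 of 1 group. They were made from total RNA of untreated K562 cells, an established erythromyeloid leukaemia line, and RNA from intron ends was enriched on an array before sequencing. The interval list is common to the 3 libraries and holds no value per library, so no comparison between groups is possible. Whether sequencing reads entered the values is not stated, and no read depth is known for them. Members were chosen by position alone. The intervals nearest to the limits had scores of 0 just inside and 0 just outside the low limit, and 1 just inside and 12 just outside the high limit.

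A branchpoint is the intron base, near the 3′ end, that takes up the freed 5′ end when an intron is cut out as a loop. Receptors of the complex carry immunoglobulin-like domains, each usually encoded by an exon of its own, next to short exons for the signal peptide, the stem and the cytoplasmic tail. LILR receptors are found mainly on myeloid and B cells, and KIR receptors on natural killer cells and some T cells. Many of these receptors bind HLA class I molecules and either inhibit or activate the cell. The cluster arose by repeated gene duplication, and KIR gene content differs between the chromosomes of different people. The reference chromosome therefore holds 1 arrangement, and whether K562 cells carry the same genes was not analysed here.

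Each interval carries a deposited score, an integer with a lowest value of 0. No source used here says what it measures or how it was scaled. Scores are described below and no test was run, since a fixed list has no replicates and intervals of a gene are not independent. Genes were attached to intervals by exon pattern and not by position: a gene was assigned where at least 3 of its internal exons were found as gaps between neighbouring intervals, with the exon lengths and the distances between the exons met exactly. A gap was taken as an exon plus 1 nt, on the rule that the left edge of an interval lies 1 nt inside the intron. Exons at which this rule does not hold could not be matched at their annotated length. At least 3 of these exons also had to be matched by no other gene. The exon lengths came from GENCODE release 29. Of 37515 genes with an approved symbol that were searched, 23 were assigned to the window. All 23 lie on chromosome 19 in that annotation, and they follow each other there in the same order as in the window.

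The assigned genes fit the name of the region. They comprised 6 KIR genes, 8 LILR genes (LILRP2, a pseudogene, among them) and the receptor genes VSTM1, TARM1 and OSCAR. NLRP7 and NLRP2, members of a family of intracellular immune sensors, lay at the high end. The 4 genes of other kinds were PRPF31, CNOT3, TTYH1 and LENG8. Together these 23 genes held 289 intervals (54.3%) at their exact intron ends, and 243 intervals stayed without a gene. LAIR1, LAIR2, FCAR, NCR1, LILRB5, KIR2DL3 and KIR3DX1 were among the other receptor genes of the complex that were not assigned by this rule.

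The KIR genes show the pattern most plainly, because the same exon lengths recurred as gaps from gene to gene. An exon of 36 nt, which encodes part of the signal peptide, was matched in 6 of 6 assigned KIR genes, and an exon of 51 nt, which encodes the stem, in 5 of 6. The sequences of these exons are shown because they fill, with 1 further base each, the gaps that the design left between neighbouring targets. They are taken from the GENCODE release 29 transcripts (GRCh38), written 5′ to 3′ in the sense of the transcript (all KIR genes lie on the plus strand), and capitals mark bases that differ from the commonest base at that position among the KIR genes listed (ties broken alphabetically). The 36 nt exons fill gaps that begin, in hg19, at 55236713 in KIR3DL3, 55282301 in KIR2DL1, 55315346 in KIR2DL4, 55328989 in KIR3DL1, 55346534 in KIR2DS4 and 55362675 in KIR3DL2.
KIR3DL3: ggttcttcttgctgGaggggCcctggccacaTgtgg
KIR2DL1: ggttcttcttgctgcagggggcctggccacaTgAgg
KIR2DL4: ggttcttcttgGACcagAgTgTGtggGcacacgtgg
KIR3DL1: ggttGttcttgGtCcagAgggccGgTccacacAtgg
KIR2DS4: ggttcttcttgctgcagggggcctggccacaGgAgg
KIR3DL2: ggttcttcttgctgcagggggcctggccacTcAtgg

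These 6 exons share their length but not all of their bases. KIR2DL1, KIR2DS4 and KIR3DL2 differed from the commonest sequence at 2 positions each (94.4% identity), KIR3DL3 at 3, KIR3DL1 at 7 and KIR2DL4 at 8 (77.8%). The stem exons were more alike, with 2 differences (96.1% identity) in each of the 5 genes, and they read as follows.
KIR2DL1: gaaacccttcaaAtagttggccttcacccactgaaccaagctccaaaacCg
KIR2DL4: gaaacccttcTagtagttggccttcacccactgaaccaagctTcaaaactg
KIR3DL1: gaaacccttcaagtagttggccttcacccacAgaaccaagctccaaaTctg
KIR2DS4: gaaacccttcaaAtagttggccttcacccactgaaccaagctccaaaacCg
KIR3DL2: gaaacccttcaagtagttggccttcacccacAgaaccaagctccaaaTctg

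The stem exon of KIR2DL1 was identical to that of KIR2DS4, and that of KIR3DL1 to that of KIR3DL2. The gaps they fill begin at 55290064, 55320288, 55336483, 55354323 and 55370534 in the order listed. The intervals on both sides of these 11 KIR exons all scored 0. The 6 matched 51 nt exons of LILR genes had 62.7% to 80.4% identity to their commonest sequence. LILRB4 holds 2 of them, at both ends of that range, so they are not all the same exon of each gene and their identity cannot be set beside that of the KIR exons.

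The matched exons differed between KIR genes in the domain exons among them. A match had to meet the annotation exactly, so these lengths and distances are those of the annotation and no separate evidence for it. KIR proteins are named for their number of immunoglobulin-like domains and for a long (L) or short (S) cytoplasmic tail, which is usually inhibitory or activating. In KIR3DL3, KIR3DL1 and KIR3DL2 the 36 nt exon was followed by domain exons of 285, 300 and 294 nt. In KIR2DL1 the 285 nt exon was not among the gaps, and the 36 nt exon lay 2448 nt before the 300 nt exon. KIR2DS4 had the same order with 2461 nt between these exons, against 2328 nt in KIR3DL3, 2143 nt in KIR3DL1 and 2491 nt in KIR3DL2, where the 285 nt exon lies between them. KIR2DS4 had a matched exon of 272 nt where the other genes had 294 nt. KIR2DL4 had the 285 nt exon and no matched exon of 300 nt, with 873 nt between its 285 and 294 nt exons.

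Distances between matched exons, which are likewise those of the annotation, were close between KIR genes in some introns and not in others. The intron between the 36 and 285 nt exons measured 742 nt in KIR3DL2, 745 nt in KIR3DL1, 770 nt in KIR3DL3 and 866 nt in KIR2DL4. The one between the 285 and 300 nt exons measured 1113 nt in KIR3DL1, 1273 nt in KIR3DL3 and 1464 nt in KIR3DL2. The intron between the 300 and 294 nt exons measured 1532 to 1582 nt in KIR3DL3, KIR2DL1, KIR3DL1 and KIR3DL2. The intron between the 294 and 51 nt exons was 3153 nt in KIR2DL1, 3169 nt in KIR3DL1 and 3166 nt in KIR3DL2, and 2588 nt in KIR2DL4. From the 51 nt exon to the 105 nt exon, which encodes the membrane-spanning part, the distance was 4265 nt in KIR2DS4, 4282 nt in KIR3DL1 and 6675 nt in KIR3DL2. In KIR2DL1 the exon of 102 nt lay 4259 nt from the 51 nt exon, with an exon of 78 nt between them.

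**Figure D1:**
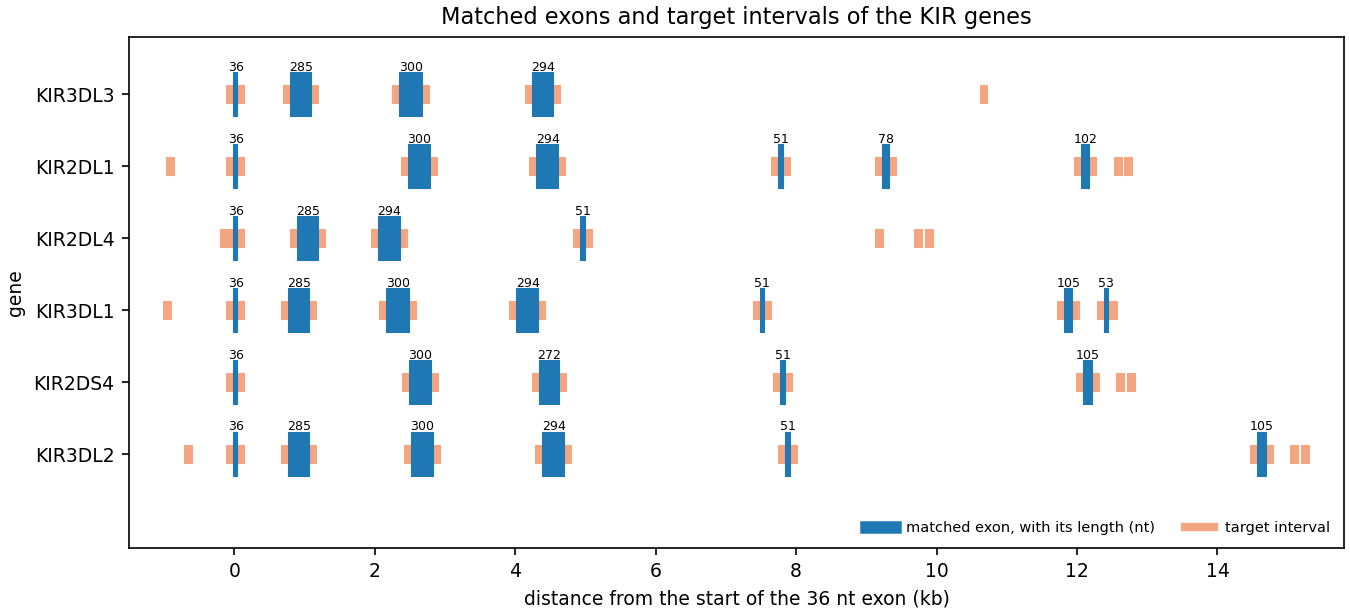
Matched exons (blue blocks, with lengths in nt) and target intervals (orange blocks) of the 6 assigned KIR genes, aligned at the start of the 36 nt exon; the horizontal axis is distance in kb. KIR2DL1 and KIR2DS4 have no matched exon of 285 nt, KIR2DL4 has none of 300 nt, and the 105 nt exon of KIR3DL2 lies 6675 nt beyond its 51 nt exon.

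Scores split the window into a few high stretches and a long low remainder. Of the 532 intervals, 221 (41.5%) scored above 0, against 52.8% of all intervals in the design and 68.8% of those on chromosome 19 outside the window. The mean score was 4.56 in the window, against 6.80 over all intervals and 13.1 on the rest of chromosome 19. The window's median was 0 with an upper quartile of 2.25 and a maximum of 106. A score of 5 or more was reached by 102 intervals (19.2%), against 29.8% of all intervals. Among 52 windows of 1 Mb on chromosome 19, this one ranked 46 from the top by mean score and 10 by targeted length (54027 bases), and among 2069 windows of all chromosomes it ranked 1038 and 28. The adjoining 1 Mb on the high side had a mean score of 18.0 and that on the low side 2.67. The MHC window (chromosome 6 from 28500001 to 33500000), another immune gene cluster, had 67.6% of its 1913 intervals above 0 and a mean score of 16.03.

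In 20 bins of 50 kb the mean score ranged from 0 to 26.3. The highest bin, from 54950001 to 55000000, averaged 26.3 over 27 intervals, of which 25 scored above 0. Next came the bin from 54600001 to 54650000 with 15.2 over 48 intervals and the bin from 54650001 to 54700000 with 12.3 over 49 intervals. The bin from 54700001 to 54750000 averaged 5.5 over 34 intervals, and the last bin, from 55450001, 3.33 over 27 intervals. These 5 bins held 34.8% of the intervals and 95.6% of the summed score (2321 of 2428).

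Of the remaining bins, 14 had a mean under 1, and no interval among their 335 scored above 7. The bin from 55050001 to 55100000 averaged 1.00 over 12 intervals. The first bin, which ends at 54550000, had 12 intervals and no score above 0. Interval numbers per bin ran from 10 to 49, so the bins with low means were not empty of targets.

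**Figure D2:**
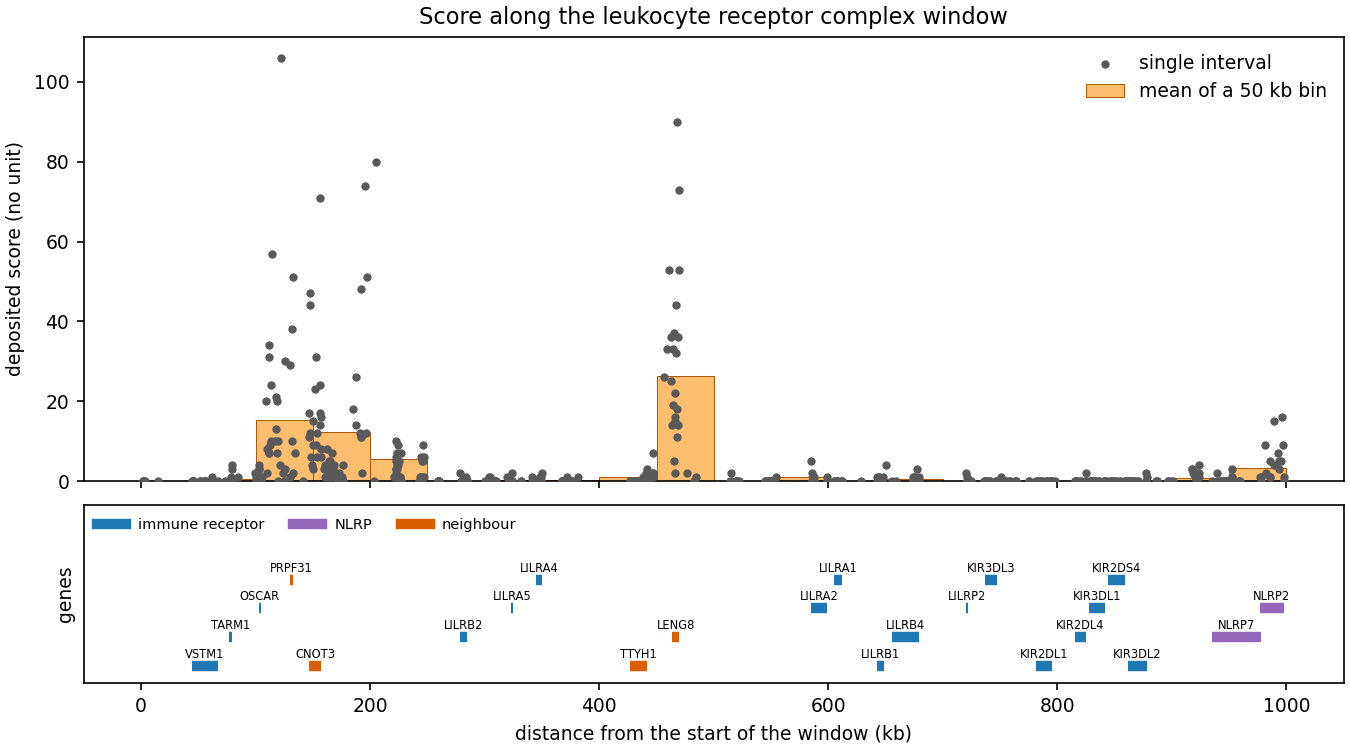
Deposited score of each of the 532 intervals (points) and mean score of each 50 kb bin (bars) against distance in kb from the start of the window, with the assigned genes below coloured by list. The bin that holds LENG8 has the highest mean, 26.3, and the bins that hold the KIR genes average under 1.

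The assigned genes with the highest scores were not receptors. LENG8, a gene named for its place in the complex, had 17 intervals from 54963933 to 54969492, with a lowest score of 2, a median of 22 and a highest score of 90. CNOT3, a subunit of the CCR4-NOT complex that shortens mRNA tails, had 17 intervals with a lowest score of 3, a median of 14 and a highest score of 71. PRPF31, a protein of the spliceosome's U4/U6 particle, had 6 intervals with scores of 1, 29, 10, 38, 51 and 2 along the gene. All intervals of these 3 genes scored above 0.

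TTYH1, a chloride channel gene known from the brain, was the exception among the 4 neighbours, with 3 of 14 intervals above 0 and a highest score of 3. The 4 neighbour genes together had 43 of 54 intervals (79.6%) above 0 and a mean score of 18.2. The 17 immune receptor genes had 31 of 197 intervals (15.7%) above 0, a mean of 0.269 and a highest score of 5. The share above 0 over all intervals of the design was 52.8%, which lies between those of these lists. The 243 intervals without a gene are in neither list. Of these, 128 (52.7%) scored above 0, with a mean of 5.36 and a highest score of 106.

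Under the rule of at least 3 exons, no interval of an assigned receptor gene scored above 5. LILRA6 and LILRB3 matched the same exons and were not assigned, so their intervals are not among these 197. Of the 9 intervals at those exons, 7 scored above 0, with a mean of 3.11 and a highest score of 9. The highest receptor score was 10 when 2 exons sufficed and 9 when at least 4 were asked for. At the setting of at least 4, the 3 exons matched by LILRB3 were too few to compete with the 5 of LILRA6. LILRA2, an activating receptor of myeloid cells, had the highest receptor score, 5, in its first interval along the chromosome (55084904 to 55085003), and 6 of its 11 intervals scored above 0. OSCAR, the osteoclast-associated receptor, had 4 of 5 intervals above 0 with scores up to 4, and TARM1, an activating receptor of myeloid cells, had 3 of 7 with scores up to 4. LILRB1, an inhibitory receptor for HLA class I, had 4 of 16 intervals above 0 with a highest score of 1. LILRB2, a relative with the same kind of ligand, had 2 of 20 above 0 with a highest score of 2. LILRA4, a receptor of plasmacytoid dendritic cells, had 3 of 8 with a highest score of 2.

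LILRA5 had 1 of 5 intervals above 0, LILRB4, an inhibitory receptor of myeloid cells, 3 of 16, LILRP2 2 of 5 and VSTM1, an inhibitory receptor of phagocytes, 1 of 14, with highest scores between 1 and 2. LILRA1 scored 0 at all 12 of its intervals.

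Nearly all KIR intervals scored 0. KIR3DL3 (9 intervals), KIR2DL1 (15), KIR2DL4 (11), KIR3DL1 (15) and KIR2DS4 (13) scored 0 at all intervals assigned to them. An interval from 55324751 to 55324851 lies inside the KIR2DL4 span, met none of its intron ends and scored 2. KIR3DL2 scored 0 at 13 of 15 intervals, and its last 2 along the chromosome scored 2 and 1. Over the 6 genes, 2 of 78 intervals (2.56%) were above 0, against 21 of 93 (22.6%) over the 8 LILR genes. The longest run of score 0 held 43 intervals over 52.4 kb, from 55325045 to 55377465, and ran from the end of KIR2DL4 through KIR3DL1 and KIR2DS4 into KIR3DL2. A longer stretch, 235 intervals over 501 kb from 54976732 to 55477936, held no score above 5, and 41 of its intervals were above 0.

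NLRP7 and NLRP2, neighbours at the high end, were unlike each other. NLRP2 had 15 of 16 intervals above 0, with a lowest score of 0, a median of 4.5 and a highest of 16. NLRP7, a gene with a maternal role in early development, had 4 of 22 above 0 and a highest score of 3. Their ranges overlapped.

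**Figure D3:**
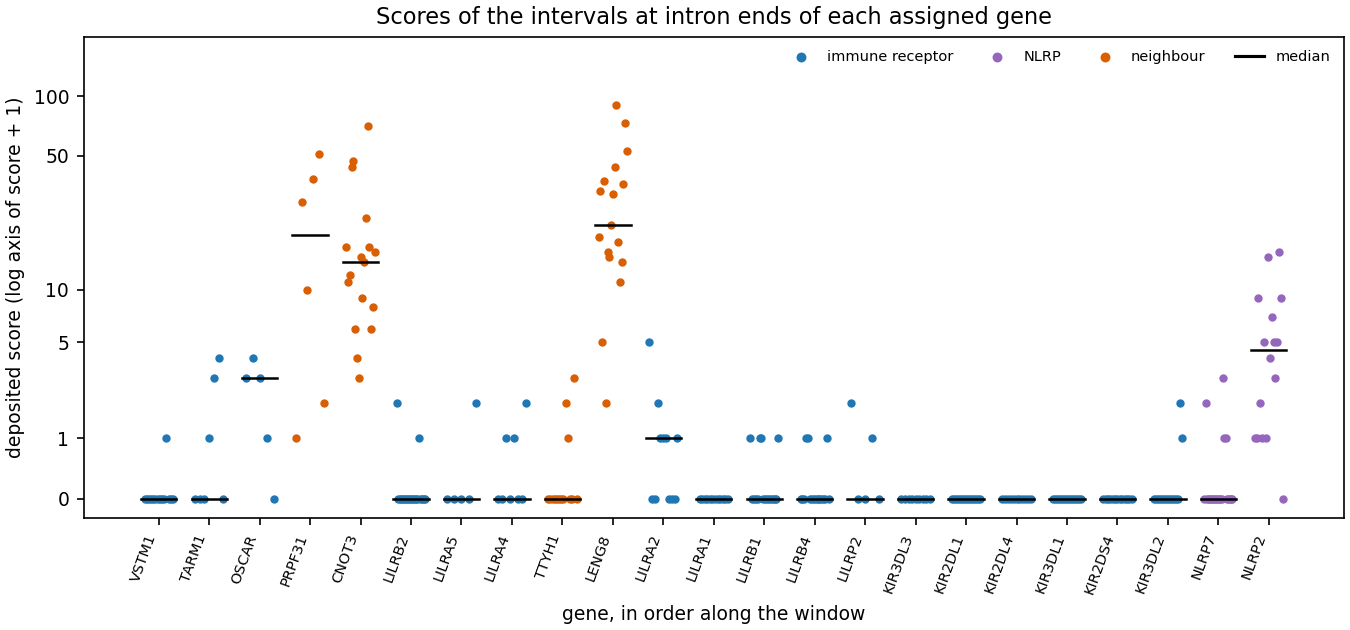
Deposited score of each interval at an intron end of the 23 assigned genes, on a log axis of score + 1, with genes in order along the window and a black line at each median. LENG8, CNOT3, PRPF31 and NLRP2 have medians between 4.5 and 22, and in 5 of the 6 KIR genes all assigned intervals lie at 0.

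A pair of receptor-like blocks had higher mean scores than any assigned receptor gene (0 to 2.2) and were not resolved with at least 3 exons. A chain of 5 exons from 54724024 matched LILRA6 and 3 of the same matched LILRB3, whose exons are nearly the same, so neither gene was assigned. That block, from 54721109 to 54727291, had 22 intervals, of which 17 scored above 0, with a mean of 3.27 and a highest score of 10. The next block, from 54742966 to 54747043, had 10 intervals, of which 9 scored above 0, with a mean of 3.50 and a highest score of 9. The same gaps of 53 and 298 nt stood side by side in both blocks, at 54724701 and at 54744453. When 2 exons sufficed, LILRB3 was assigned to the start of the first block, from 54721109 to 54723495, with 8 of 8 intervals above 0, a mean of 4.75 and a highest score of 10. These blocks were picked for description with their scores in view. Whether sequence shared between copies bears on a score was not tested.

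The 5 highest scores of the window were spread over both high stretches. The highest, 106, was that of the interval from 54621837 to 54621952 (116 nt), and its neighbours on either side scored 4 and 2. The interval from 54967425 to 54967503 in LENG8 scored 90. Scores of 80 and 74 were those of the intervals from 54704830 to 54705000 and from 54695817 to 54695966, neither with an assigned gene. A score of 73 belonged to the interval from 54969182 to 54969281 in LENG8. The intervals that scored 4 and 106 were 216 nt apart, so scores of neighbours in the high stretches were uneven.

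Gap lengths of receptor exons made up a larger share of the gaps here than over the whole design. Of 531 gaps, 381 (71.8%) were at most 1000 nt, against 58.6% of all gaps of the design. Their median was 199 nt with quartiles of 66 and 304 nt, against 148 nt with quartiles of 98 and 279 nt over all. In the annotation, 12 exon lengths occur at least 5 times among the internal exons of LILR, LAIR and KIR genes, and 112 of the 381 short gaps (29.4%) equalled one of them plus 1 nt. The share was 2.22% over all gaps of at most 1000 nt in the design and 2.55% on the rest of chromosome 19. The 12 lengths came from genes of this complex, so a higher share in the window follows in part from that choice.

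The commonest gap was 52 nt, with 21 gaps (5.51%, against 0.26% over all), followed by 37 nt with 17 (4.46%, against 0.20%). Next came the domain-sized gaps of 286 and 304 nt with 13 each, 298 nt with 12, 301 nt with 10 and 295 nt with 7. Gaps of 280 to 310 nt, the size of an exon for an immunoglobulin-like domain, made up 19.9% (76), against 2.00% over all. The remaining lengths among the 10 commonest were 53 nt (9 gaps), 54 nt (5) and 76 nt (5). No gap of 53 nt was matched to an exon, and 8 of the 9 held neither a matched exon nor the middle of an assigned intron. Those in KIR2DL1, KIR2DL4, KIR2DS4 and KIR3DL2 nevertheless lay between neighbouring intervals assigned to that gene. In KIR3DL1 a gap of 54 nt was matched to an exon of 53 nt. An exon of 53 nt occurs 15 times in the annotation of the receptor genes. Gaps of exactly 53 nt, without the further base, were not counted as receptor lengths. Of the gaps of 30 to 400 nt, 58.4% (180 of 308) left 1 when divided by 3, against 38.0% over all, and 8 of the 10 commonest lengths left 1.

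A gap does not always hold an exon. An intron longer than its pair of targets leaves its middle as a gap. In the assigned genes, 121 gaps of at most 1000 nt held an exon and 67 the middle of an intron. Of the 112 gaps of a receptor exon length, 67 were exons and 5 intron middles of assigned genes. The rest held neither a matched exon nor the middle of an assigned intron. The 5 gaps of 261 nt were of the second kind where a gene was assigned (3 of 5). One run of gaps of 106, 261 and 53 nt occurred 3 times, at 55246620, at 55263001 and at 55358539, the last in KIR2DS4. In all, 5 pairs of places shared a run of 3 gap lengths and 13 pairs a run of 2.

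**Figure D4:**
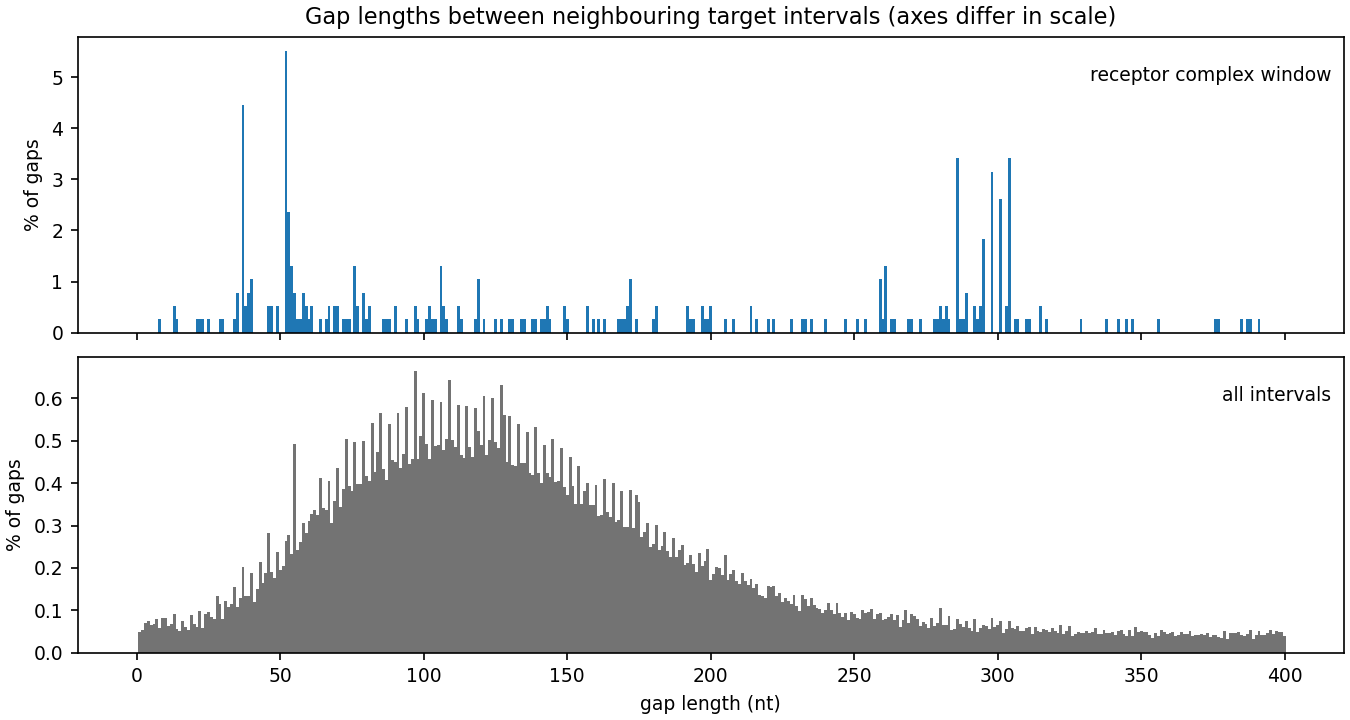
Share of gaps of at most 1000 nt that have each length up to 400 nt, in the receptor complex window (upper panel) and over all intervals (lower panel, other scale). The window has single lengths at 37, 52 and 286 to 304 nt that make up 1.84% to 5.51% of its gaps each, and the lower panel is a broad hump.

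Targets of the window were more often of unusual width. Full-width intervals of 100 nt made up 78.2% (416), against 87.7% of all intervals. Intervals wider than 101 nt made up 9.40% (50), against 3.37% over all, which placed the window 3 from the top of 52 on chromosome 19. Such a width arises where the targets of both ends of a short intron meet. Whether each of the 50 arose in this way was not checked. Widths of 140 to 150 nt accounted for 3.20% (17 intervals, against 0.34%) and widths of 180 to 190 nt for 2.07% (11, against 0.29%). The MHC window had a larger share of intervals over 101 nt, 14.6%.

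The wide targets recurred at the same place in LILR genes. LILRA5, LILRA2, LILRB2, LILRA4, LILRB1, LILRB4, LILRA1 and LILRP2 held 21 of the 50, or 22.6% of their 93 intervals, and the 6 KIR genes held 2 of 78. In LILRA5 the intron between the 36 and 285 nt exons was 1 target of 185 nt, from 54823419 to 54823603. In LILRA2 the corresponding target was 188 nt wide, from 55085580 to 55085767. The target between the first and second domain exons was 142 nt in LILRB2, 147 nt in LILRA2 and 146 nt in LILRA1 and in LILRB1. It was 148 nt in LILRP2 and, wider, 159 nt in LILRA4.

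The 5 widest targets measured 187 to 198 nt and all scored 0, the widest being the one from 55315148 to 55315345, just before the 36 nt exon of KIR2DL4. Of the 50 wide targets, 32 stood beside a gap of a receptor exon length and had a median score of 0 and a highest of 9. The other 18 had a median of 7 and a highest of 106. Over all 532 intervals of the window, 207 (38.9%) stood beside such a gap, with a median of 0 and a mean of 1.18. The remaining 325 had a median of 1 and a mean of 6.72, so lower scores beside such gaps were not particular to wide targets. Intervals of 70 to 95 nt had a mean score of 10.8 and a median of 3 (27 intervals), against 3.51 and 0 for full-width ones. The interval of score 90 in LENG8 is among those of 70 to 95 nt. Whether width bears on a score was not tested. The narrowest target was 2 nt long, from 54656738 to 54656739 in the CNOT3 span, with a score of 6.

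**Figure D5:**
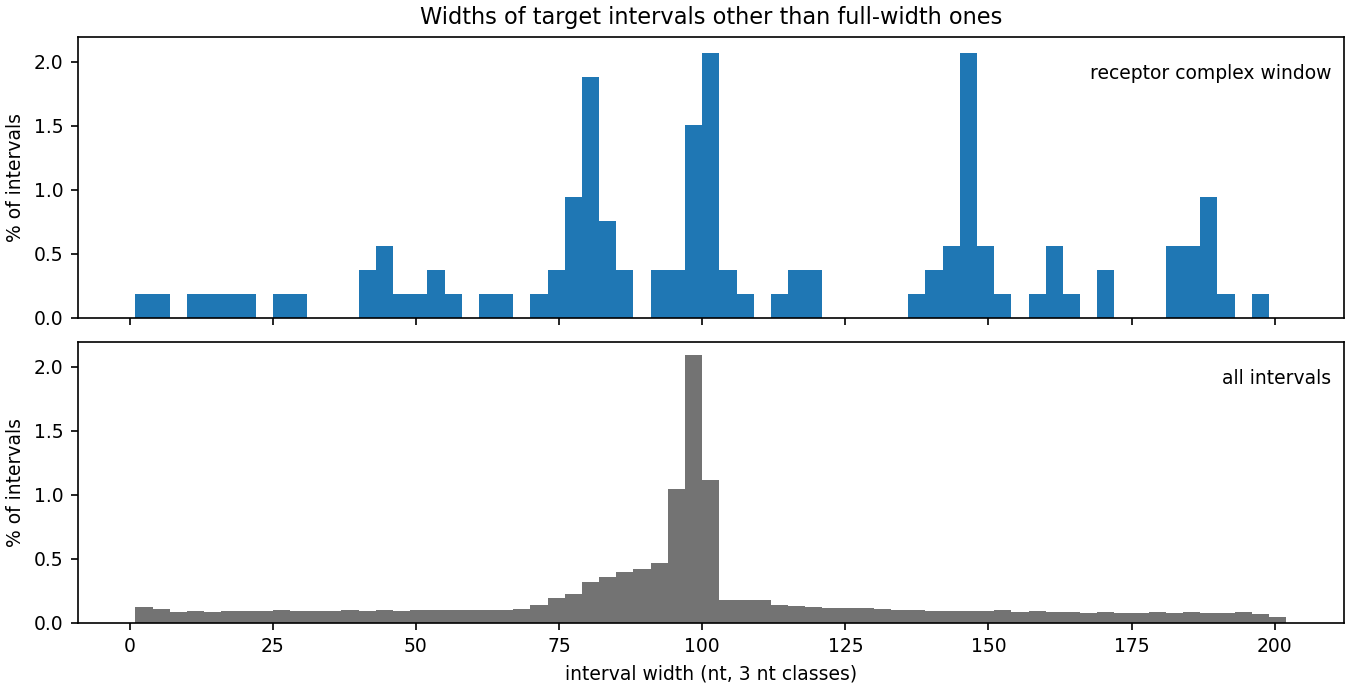
Share of intervals of each width other than 100 nt, in classes of 3 nt, in the receptor complex window (upper panel) and over all intervals (lower panel). The window has extra intervals near 80, 146 and 187 nt, where the lower panel is flat or small.

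Long stretches without targets lay between genes and also within the spans of some genes. The widest gap measured 45.0 kb, from 54881868 to 54926853, next to TTYH1. The second, 40.9 kb from 55179324 to 55220223, lay between LILRB4 and LILRP2. Gaps of 30.7 kb (from 55054238), 30.0 kb (from 54984210) and 29.1 kb (from 54515205) followed, and 24 gaps exceeded 10 kb. Some of the 24 lay within the span of an assigned gene, such as 10699 nt in LILRA2 and 14158 nt in LILRB4. Interval numbers run without a break along a chromosome except where a number is missing, and 7 of 539 numbers (1.30%) were missing in the window, at 5 places. None of the 5 places lay inside the span of an assigned receptor gene. The largest loss, 3 numbers, fell in the gap of 16108 nt from 54705001 to 54721108, between intervals that scored 80 and 1. The others stood between scores of 1 and 20, 4 and 3, 4 and 18, and 14 and 19.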

How the data were processed

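The deposited list of target intervals of the capture array was used, and read alignments and branchpoint calls were not analysed here. Targets were the outermost 100 nt of both intron ends in GENCODE release 12, less exon overlaps and regions highly transcribed in K562 cells, per the labels. The submitters' processing notes name hg19, Bowtie2, TopHat2 and bedtools, without saying which made the list. The deposited score was used as given. Its meaning is not stated, so no count model was fitted. Coordinates are hg19 and 1-based. Bins take an interval by its start. Annotation of hg19 was not used here. From GENCODE release 29 (GRCh38) exon lengths and distances within genes were compared with the gaps, with no coordinate converted. Of those genes, the ones with an approved symbol were searched. An interval was given to a gene where its start or end met an intron end of the matched gene. Region and gene lists, and the rule for naming (the 3 highest bins, bins with no score above 0, the longest run of score 0, the 5 highest, 5 widest and 5 narrowest intervals, 5 widest gaps, 10 commonest gap lengths and all assigned genes) were chosen with earlier results of these data known. The list was a census, so no p-value is given. Python 3.11.15, numpy 2.4.6, pandas 2.3.3, scipy 1.17.1 and matplotlib 3.10.9 were used. A sequence of 1 further exon is not reported here.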

Additional observations from a re-analysis of the deposited data

How the results depend on the processing

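Moving the limits inward to 54600001 and 55400000, or taking intervals that overlap the window, changed the number of intervals (449 and 532), the share above 0 (41.4% for the inner window) and the mean score (5.13 for the inner window) by less than 1.5 times. A threshold of a score of 5 or more gave 19.2% of intervals, against 41.5% above 0, widths of 90 to 110 nt gave 83.1% in place of 78.2%, and gaps of at most 300 nt had a median of 106 nt. The share with remainder 1 was 45.1% when restricted to gaps of 60 to 200 nt, and a tolerance of 3 nt raised the share of receptor-length gaps to 40.9%, against 9.87% over all intervals. By whole-Mb windows, the window from 54000001 ranked 112 by targeted length and that from 55000001 ranked 13, and the one from 55000001 ranked 191 by mean score. The number of genes assigned was 31 with at least 2 exons (1 of them on another chromosome), 18 with at least 4, 22 with basic transcripts and 27 with exon distances within 5 nt, an alternative chosen after seeing the data. In these 4 settings the mean score was 0.272 to 0.445 for receptor genes and 15.5 to 24.8 for neighbours, and the highest receptor score, 5 as reported, was 10 with at least 2 exons and 9 with at least 4. No paired analysis was possible because the list holds no value per library, and no replicate could be left out. Whether reads entered the scores is not stated and no read depth is known for them, so no limit from depth can be given.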

Other observations

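Allowing distances between exons to differ by up to 5 nt added 4 genes. KIR2DL3, which lies between KIR3DL3 and KIR2DL1, had 1 of 12 intervals above 0, with a score of 1. LAIR2, a secreted collagen-binding relative of LAIR1, had 1 of 8 above 0, with a score of 2. NCR1, which encodes the activating natural killer cell receptor NKp46, had 6 of 7 intervals above 0 with a median score of 2 and a highest score of 3. TMC4, a gene of the transmembrane channel-like family, had 7 of 9 above 0 with a highest score of 5. In the same setting PRPF31 gained the interval of score 106, and its 9 intervals ran from 0 to 106 with a median of 10. TTYH1 had 7 of 19 intervals above 0 in this setting, with a median of 0 and a highest score of 7. LILRB2 had 26 intervals in this setting, against 20, and its span ended at 54803464 in place of 54784814. Whether the added intervals belong to LILRB2 was not checked. These genes were looked at after their values were seen.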
